A study of Mus musculus with 2 samples.

Results

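The miR-34 and miR-449 family comprises 6 miR hairpins of the mouse, miR-34a, miR-34b, miR-34c, miR-449a, miR-449b and miR-449c. Its members were chosen by name alone, with both arms of each hairpin, which gave 11 of the 1886 mature miRs counted in sperm. Sperm came from wild-type C57BL/6J mice of 3 months that were labelled as naive, and each of 2 libraries was described as an independent biological replicate of this single condition. Sperm was released from the epididymis, and the pellet was treated with a hypotonic detergent buffer meant to break other cells. The number of mice behind each library is not given in the sources used here. No group other than these 2 libraries was analysed here, so the question addressed is which members and arms of the family were present in sperm, and how far the replicates differed.

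A miR is cut from a hairpin whose 5′ and 3′ arms (5p and 3p) can each give a mature strand, of which usually one is kept on the Argonaute protein and guides it to messenger RNAs. Bases 2 to 8 of that strand, the seed, largely decide which messenger RNAs are bound. miR-34a and the miR-34b/c cluster are well-known target genes of the tumor suppressor p53, and miR-34a is expressed in many tissues. The miR-34b/c and miR-449 clusters are known for the testis, where they are expressed in meiotic and postmeiotic germ cells, and for cells with motile cilia, including those of the efferent ducts. Male mice that lack both clusters are infertile.

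The replicates held 4049599 and 5648067 miR reads, and a further 2496304 and 2017799 reads were assigned to no miR. Abundance is given as CPM, the reads of a miR per 1000000 miR reads of its library. Intervals of levels and shares are Wilson 95% intervals on the reads of a single library and cover counting error only. The reads carry no molecular identifiers, so copies made in amplification could not be told apart and these intervals may be too narrow. A count of 3 reads, taken here as the limit for an entry without reads, corresponds to 0.741 CPM in replicate 1 and to 0.531 CPM in replicate 2. Over all miRs, the replicates varied with a biological coefficient of variation of 35.7% (common dispersion of edgeR). With 2 libraries of 1 condition no test between groups was possible, and the spread given is that between these libraries.

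Mature sequences of 9 of the 11 family entries were matched by name in RefSeq (GRCm38.p6), and miR-34c-5p and miR-449b are given by name only. The sequences are shown with the seed in capitals, because arms of different hairpins share seeds. The 5p arms matched, all with the seed GGCAGUG, are
miR-34a-5p: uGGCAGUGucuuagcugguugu
miR-34b-5p: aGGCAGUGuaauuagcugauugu
miR-449a-5p: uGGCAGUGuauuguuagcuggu
miR-449c-5p: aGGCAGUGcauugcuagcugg
and the 3p arms matched are
miR-34b-3p: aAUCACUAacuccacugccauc
miR-34c-3p: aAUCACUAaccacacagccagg
miR-34a-3p: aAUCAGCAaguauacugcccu
miR-449a-3p: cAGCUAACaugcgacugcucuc
miR-449c-3p: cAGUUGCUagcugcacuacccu
Among the 1679 mature sequences of the reference, none outside the family held the seed GGCAGUG. The seed AUCACUA was held by miR-34b-3p and miR-34c-3p only, and each of the other 3p arms shown had a seed of its own. The sequences of miR-34b-3p and miR-34c-3p were identical at 17 of 22 positions. Counted from the 5′ end, with the base of miR-34b-3p first, they differed by U11C, C12A, U16A, U21G and C22G. None of the 9 sequences shared a run of more than 11 bases with another mature sequence of the reference. That is shorter than the 15 nucleotides below which reads had been discarded. A read of an allowed length thus cannot match 2 of these 9 sequences without mismatch. For miR-34c-5p, which held most of the family reads, and for miR-449b no sequence was available. Reads that either could share with other members were therefore not examined. The later mapping steps of the paper allowed a mismatch, which this comparison does not cover.

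In the GENCODE annotation of GRCm38, the build named in the submitters' processing notes, the hairpins lie at 3 loci. Mir34a (ENSMUSG00000065493.1) is on the plus strand of chromosome 4 at positions 150068454 to 150068555, and its last bases overlap an exon of a gene model of unsettled type, Gm37795. Mir34b (ENSMUSG00000065492.1, 51103562 to 51103645) and Mir34c (ENSMUSG00000065587.1, 51103034 to 51103110) are on the minus strand of chromosome 9, separated by 451 bases. Both lie opposite to intron 1 of Btg4, a gene on the plus strand. Mir449c (ENSMUSG00000076146.1, 113035983 to 113036091), Mir449b (ENSMUSG00000078027.1, 113037419 to 113037498) and Mir449a (ENSMUSG00000065575.1, 113037534 to 113037624) follow each other within 1642 bases on the plus strand of chromosome 13. All of them lie in intron 2 of Cdc20b, in the direction of that gene.

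The family was present in the sperm libraries from all 3 of its loci, and miR-34c-5p held most of its reads. Of the 11 entries, 6 had at least 1 read in each library, where 20% of all 1886 miRs did. The same 6 also had at least 10 reads in each library, where 12.9% of all miRs did. The remaining 5 entries, miR-34a-3p, miR-449a-3p, miR-449b, miR-449c-5p and miR-449c-3p, had no read in either library, which allows a level of up to 0.741 CPM in replicate 1 and 0.531 CPM in replicate 2. Together the family took 15839 reads of replicate 1, or 0.391% of the miR reads (0.385% to 0.397%), and 9321 reads of replicate 2, or 0.165% (0.162% to 0.168%). The mean was 0.278% ± 0.160 (SD, n = 2).

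miR-34c-5p, the main strand of the miR-34c hairpin, had 12078 and 7420 reads in replicates 1 and 2. This is 2983 CPM (2930 to 3036) and 1314 CPM (1284 to 1344), with a mean of 2148 ± 1180 CPM (SD, n = 2). It ranked 19th and 25th in the respective libraries among the 378 miRs detected in both. Within the family its share was 76.3% in replicate 1 (75.6% to 76.9%) and 79.6% in replicate 2 (78.8% to 80.4%). Its level was thus above that of all other members in each library, and the intervals of its share of the family did not overlap between the libraries.

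The partner strand miR-34c-3p had 601 and 228 reads, or 148 CPM (137 to 161) and 40.4 CPM (35.5 to 46.0), with a mean of 94.4 ± 76.4 CPM (SD, n = 2). miR-34b-3p, which shares the seed of miR-34c-3p, was the second most abundant member with 1630 and 756 reads. Its levels were 403 and 134 CPM, with a mean of 268 ± 190.0 CPM (SD, n = 2). As shares of the miR reads these were 0.0403% (0.0383% to 0.0423%) and 0.0134% (0.0125% to 0.0144%). miR-34b-5p, which carries the seed GGCAGUG, had 306 and 258 reads, or 75.6 CPM (67.6 to 84.5) and 45.7 CPM (40.4 to 51.6), with a mean of 60.6 ± 21.1 CPM (SD, n = 2). All 4 arms of the miR-34b/c cluster were thus found in both libraries, and together they made up 92.3% of the family reads in replicate 1 and 92.9% in replicate 2.

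miR-449a-5p was the only strand of the miR-449 cluster with reads. It had 1170 and 599 reads, or 289 CPM (273 to 306) and 106 CPM (97.9 to 115), with a mean of 197 ± 129 CPM (SD, n = 2). miR-34a-5p had 54 and 60 reads, or 13.3 CPM (10.2 to 17.4) and 10.6 CPM (8.25 to 13.7), with a mean of 12.0 ± 1.92 CPM (SD, n = 2). It was the least abundant strand among those with reads, and the only one for which the intervals of the replicates overlapped. With so few reads, its counting intervals were also the widest relative to the level.

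**Figure D1:**
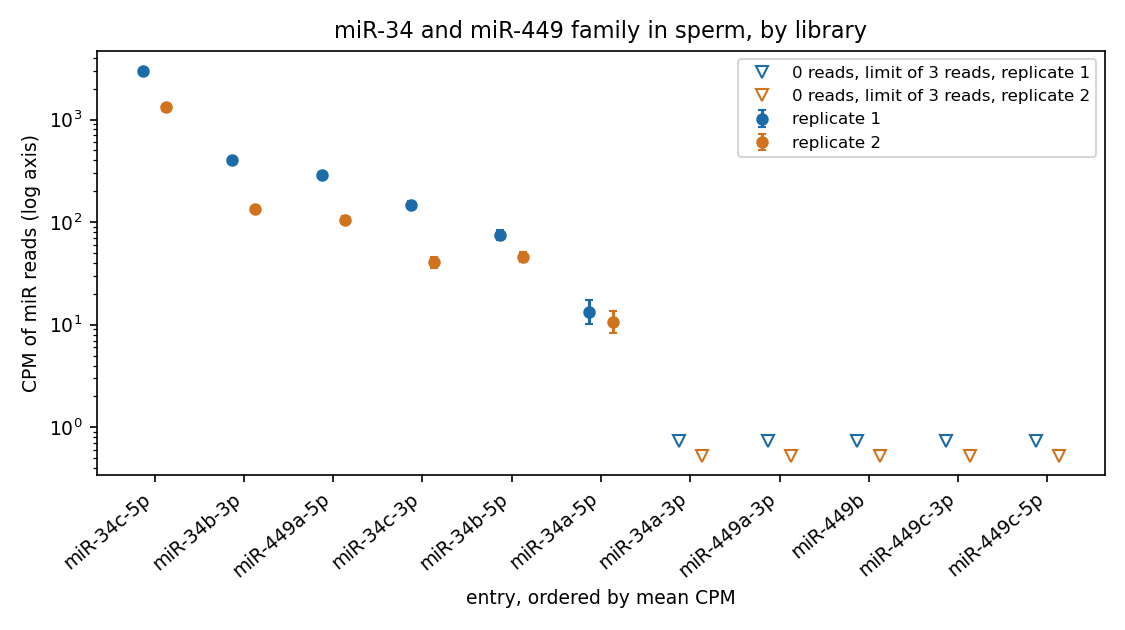
CPM of each family entry on a log axis, with blue points for replicate 1, orange points for replicate 2 and bars for Wilson 95% intervals. Open triangles mark entries without reads, drawn at the level of 3 reads. miR-34c-5p lies at 2983 and 1314 CPM, miR-34a-5p at 13.3 and 10.6 CPM, and 5 entries have no read.

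The order of the mean levels was miR-34c-5p, miR-34b-3p, miR-449a-5p, miR-34c-3p, miR-34b-5p and miR-34a-5p. miR-34c-5p lay above miR-34b-3p by 7.41 times in replicate 1 and 9.81 times in replicate 2, and miR-34b-5p lay above miR-34a-5p by 5.67 and 4.30 times. In both of these pairs the ranges over the replicates did not overlap. The neighbours in the middle of the order had ranges that overlapped and were not separated by the spread between the libraries. Within each library miR-34b-3p was above miR-449a-5p, by 1.39 and 1.26 times, and miR-449a-5p was above miR-34c-3p, by 1.95 and 2.63 times. miR-34c-3p and miR-34b-5p changed places, with a ratio of 1.96 in replicate 1 and 0.884 in replicate 2.

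The hairpins of one cluster were represented unequally. With the arms summed, miR-34c had 12679 and 7648 reads and miR-34b had 1936 and 1014 reads, so that miR-34c exceeded miR-34b by 6.55 times in replicate 1 and 7.54 times in replicate 2. In the miR-449 cluster, where miR-449b and miR-449c had no read, miR-449a exceeded either of them by at least 390.0 times in replicate 1 and at least 199.7 times in replicate 2, against a floor of 3 reads in each library. The miR-34b/c cluster exceeded miR-449a by 12.5 and 14.5 times. These are ratios of reads within a library and do not depend on how the library is scaled. How well each mature sequence is recovered in library preparation was not tested.

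**Figure D2:**
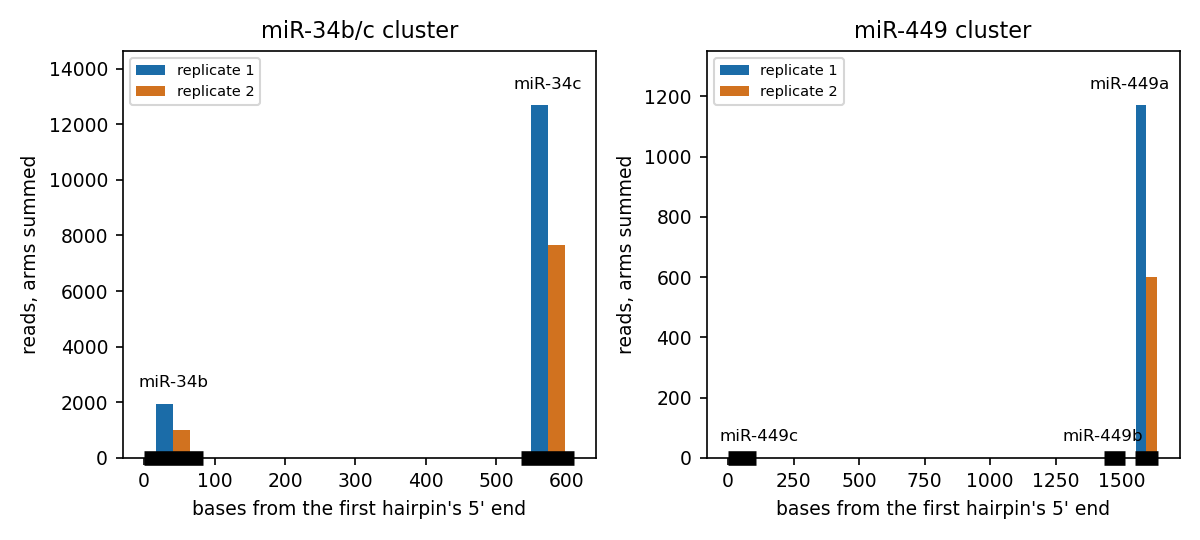
Reads of each hairpin with the arms summed, in replicate 1 (blue) and replicate 2 (orange), against the distance in bases from the 5′ end of the first hairpin of its cluster. Black blocks mark the hairpins to scale. miR-34c, with 12679 and 7648 reads, exceeds miR-34b, and in the miR-449 cluster only miR-449a has reads (1170 and 599); the vertical scales of the panels differ.

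The arms were used differently by the hairpins of this family. In miR-34b the 3p arm prevailed, with a share of 84.2% (82.5% to 85.8%) of the 1936 reads in replicate 1 and of 74.6% (71.8% to 77.1%) of the 1014 reads in replicate 2. In miR-34c, encoded 451 bases away, the 3p arm held only 4.74% (4.38% to 5.12%, 12679 reads) and 2.98% (2.62% to 3.39%, 7648 reads). The reads of miR-34a and miR-449a fell on the 5p arm alone, which at 3 reads allows the 3p arm a share of up to 5.56% and 5.0% in miR-34a and 0.256% and 0.501% in miR-449a. Of the 4 family hairpins with at least 10 reads in each library, 1 had the larger part of its reads on the 3p arm in both libraries. Among all 157 hairpins with both arms listed and as many reads, 43.9% did.

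The 3p arms with the shared seed AUCACUA, miR-34b-3p and miR-34c-3p, together had 2231 reads in replicate 1 and 984 in replicate 2. All 5p arms of the family together had 13608 and 8337 reads. They took a share of 85.9% (85.4% to 86.4%) of the family in replicate 1 and of 89.4% (88.8% to 90.1%) in replicate 2. Without miR-34c-5p, 44.5% of the remaining family reads were on 5p arms as a mean over the libraries.

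**Figure D3:**
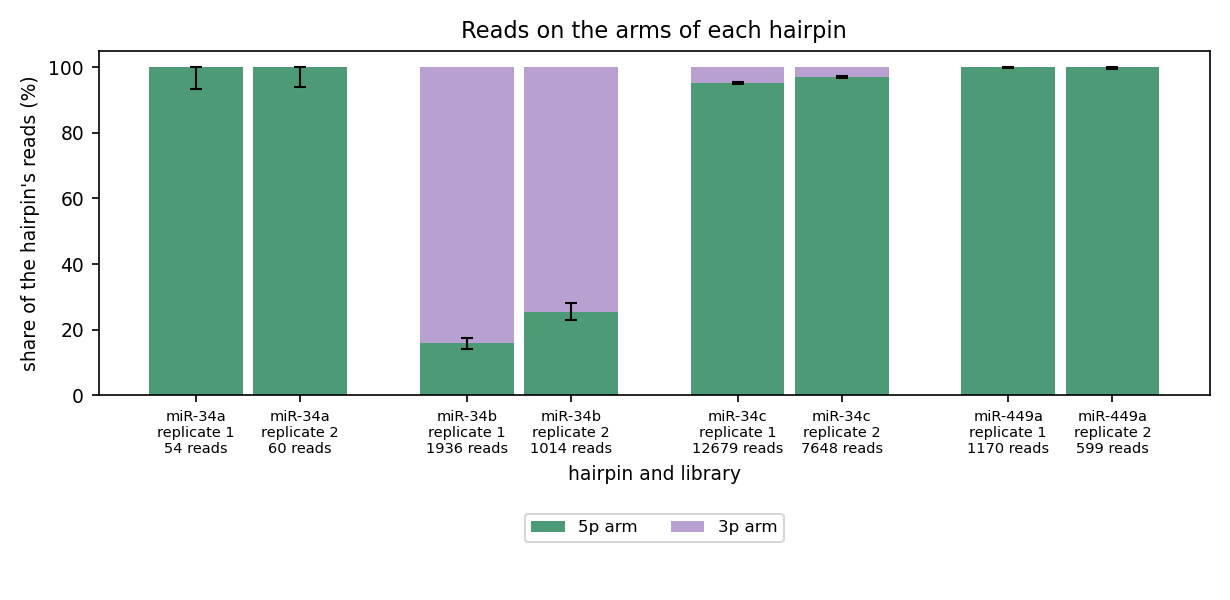
Share of the reads of each hairpin on its 5p arm (green) and its 3p arm (purple), in percent, for each library, with the number of reads under each bar. Bars at the boundary are Wilson 95% intervals. miR-34b is mainly 3p (84.2% and 74.6%), miR-34c mainly 5p, and miR-34a and miR-449a show 5p reads only.

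In miR-34b and miR-34c the 3p arm also differed more between the libraries than the 5p arm of the same hairpin. The log2 ratio of 3p to 5p reads changed between replicate 1 and replicate 2 by -0.86 for miR-34b and by -0.70 for miR-34c, with counting intervals of -1.13 to -0.59 and -0.92 to -0.47. This ratio was lower in replicate 2 for both of these hairpins and for 51.4% of the 37 hairpins with at least 10 reads on each arm in each library. Over those 37 hairpins the median was -0.09, with quartiles at -0.43 and 0.29, so both members lay below the lower quartile.

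Relative to all miR reads, the family was less abundant in replicate 2. The log2 ratio of replicate 2 to replicate 1 was -1.24 for the summed family (counting interval -1.28 to -1.21). It was -1.88 for miR-34c-3p, -1.59 for miR-34b-3p, -1.45 for miR-449a-5p, -1.18 for miR-34c-5p and -0.73 for miR-34b-5p. For miR-34a-5p it was -0.33, with an interval of -0.88 to 0.23 that includes 0. At least 2 times lower in replicate 2 were 4 of the 6 detected entries, where 20.9% of the 244 miRs with at least 10 reads in each library were. Of these 4 entries, miR-34c-3p, miR-34b-3p and miR-34c-5p come from the miR-34b/c cluster, so they are not independent of each other. Scaling mattered, since the median of these 244 miRs was itself -0.34 and TMM normalization moved it by 0.35 to 0.02. After TMM, 3 of the 6 entries were at least 2 times lower in replicate 2, where 12.3% of all were. miR-34c-5p then had a log2 ratio of -0.83, and miR-34a-5p turned to 0.02.

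**Figure D4:**
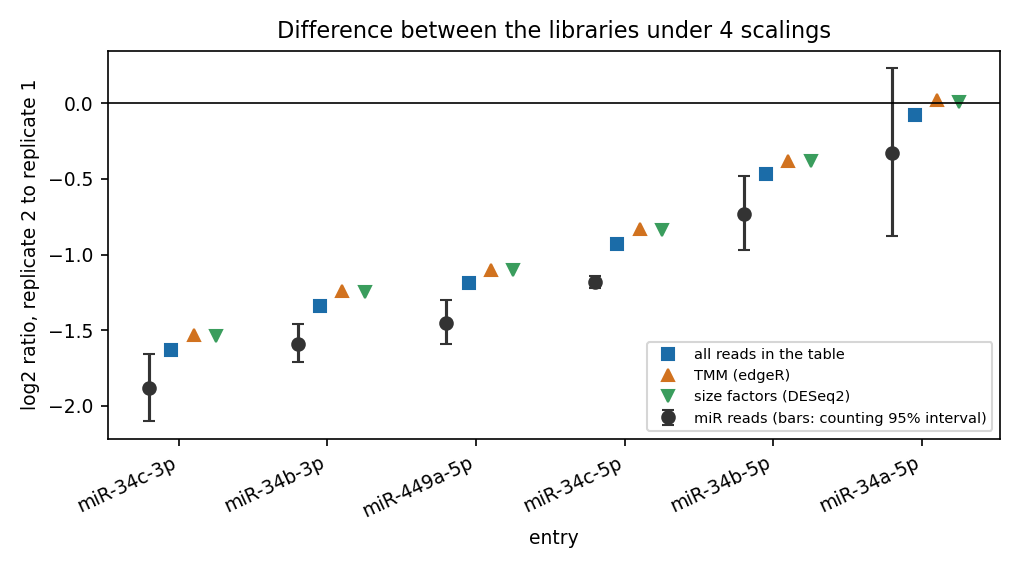
Log2 ratio of replicate 2 to replicate 1 for the 6 detected entries, scaled by miR reads (black, with counting 95% intervals), by all reads in the table (blue), by TMM (orange) and by DESeq2 size factors (green). From -1.88 for miR-34c-3p to -0.73 for miR-34b-5p the entries lie below 0 when scaled by miR reads, as they do under the other scalings, while miR-34a-5p lies near 0.

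Other miRs that mark cell types were compared side by side. The X-linked germ cell miRs, a large group of the miR-506 family expressed in the testis, have 24 entries in the tables, of which 13 had a read in each library. All 10 entries with at least 10 reads in each library were lower in replicate 2, where 71.7% of all 244 miRs with as many reads were. After TMM, 9 of 10 were lower, where 48.4% of all were. The median log2 ratio of these 10 was -1.49 (-1.14 after TMM), against a median of -1.31 over the 6 detected entries of the miR-34 and miR-449 family (-0.96 after TMM). Both sets include arms of the same hairpin, so their entries are not independent of each other. The summed X-linked list had 1831 CPM in replicate 1 and 679.9 CPM in replicate 2, and 9 and 10 of its entries were at 0. Its most abundant entry was miR-470-5p, with 5916 and 3105 reads. Per read of the X-linked list, the miR-34 and miR-449 family had 2.14 reads in replicate 1 and 2.43 reads in replicate 2.

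The lists for other cells gave other values. The 6 miRs listed for smooth muscle and stroma, led by miR-143-3p, summed to 41188 CPM in replicate 1 and 62363 CPM in replicate 2, with a median log2 ratio of 0.40 (0.75 after TMM), and 1 of 6 was lower in replicate 2, where 71.7% of all miRs were. The 6 miRs listed for blood, led by the joined entry of miR-486a-5p and miR-486b-5p, summed to 3276 and 7154 CPM, with a median of 0.63 (0.98 after TMM) and 1 of 6 lower. The 7 miRs listed for epithelium, led by miR-141-3p, summed to 10785 and 8833 CPM, with a median of -0.24 that turned to 0.11 after TMM, and 6 of 7 were lower (3 of 7 after TMM), beside 71.7% and 48.4% of all miRs. None of the listed markers was at 0 in either library. Left out of the epithelial list were miR-31-5p (log2 ratio -2.21), miR-184-3p (-1.57), miR-194-5p (-1.07) and miR-192-5p (-0.86), also known from epithelium. Within the list miR-205-5p went the other way, at 0.99. The values for epithelium thus depend on which markers are listed. Per read of the blood list the miR-34 and miR-449 family had 1.19 and 0.231 reads, and per read of the epithelial list 0.363 and 0.187 reads. The part of these cells in the difference of the family between the libraries was not tested. In such samples, fewer cells of a type and less RNA per cell cannot be told apart.

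**Figure D5:**
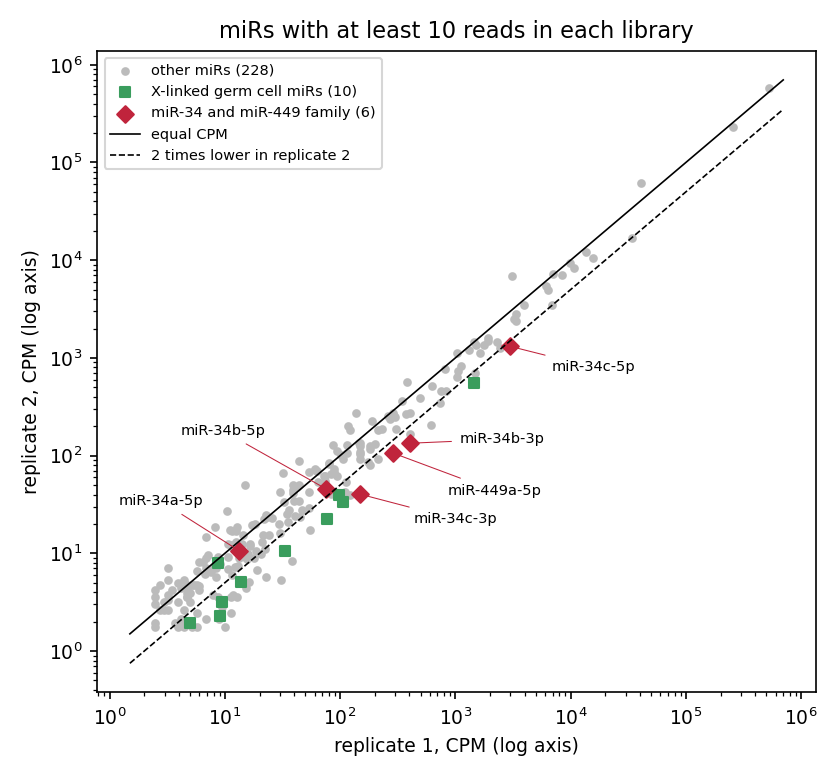
CPM in replicate 2 against replicate 1, both on log axes, for the 244 miRs with at least 10 reads in each library. Red diamonds are the 6 entries of the miR-34 and miR-449 family, green squares the 10 X-linked germ cell miRs and gray points all others. The solid line marks equal CPM and the dashed line 2 times lower CPM in replicate 2, below which 4 of the 6 family entries lie.

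Other miRs reported to respond to p53 were examined beside the miR-34 members. All 8 listed miRs had a read in each library, and 7 had at least 10 reads in each. Of these 7, 4 were lower in replicate 2, 1 of them at least 2 times, with a median log2 ratio of -0.28 that turned to 0.07 after TMM. Over all 244 miRs, 71.7% were lower and 20.9% at least 2 times. The most abundant was miR-143-3p, with 165421 and 349579 reads, which is also among the smooth muscle markers. The log2 ratio of miR-34a-5p, -0.33, lay within the range of the list, -1.07 to 0.81, as did that of miR-34b-5p, -0.73. Those of miR-34c-5p (-1.18), miR-34b-3p (-1.59) and miR-34c-3p (-1.88) lay below it. The top of the range was set by a miR that is also among the smooth muscle markers, and its bottom by miR-194-5p, also known from epithelium.

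The miRs nearest to miR-34c-5p in level, by the Euclidean distance in log2 CPM over the 2 libraries, were miR-16-5p, miR-30d-5p and miR-375-3p. miR-16-5p, best known as a brake on the cell cycle, had 2424 and 1274 CPM, at a distance of 0.30. miR-30d-5p had 2277 and 1439 CPM, at a distance of 0.41, and miR-375-3p had 1906 and 1474 CPM, at a distance of 0.67. With 2 libraries this likeness covers the level in each library and no more.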

How the data were processed

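Small RNA was sequenced from 2 sperm libraries of naive wild-type mice. The authors trimmed low-quality ends, removed adapters with cutadapt 1.8.1, discarded reads under 15 nucleotides and mapped with Bowtie 1.1.2, first without mismatch to miR and piRNA sequences. The submitters' processing notes also name HTSeq and the build mm10 (GRCm38). They deposited whole-number read counts for 1886 mature miRs in each library, without normalization. The names of the deposited tables carry a term for treatment that the labels do not explain. The miR annotation release is not given in the sources used here. Each table closes with 5 summary entries. Reads assigned to no miR are given above and were left out of totals, and the other 4 entries, non-unique alignments among them, were 0. Reads with an error or an extra base at the end fail a mapping without mismatch, so miRs with many such ends may be undercounted. The paper states that later mapping steps, which ended with the mouse genome, allowed a mismatch. Whether reads mapped in those steps entered the counts was not tested.

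From the deposited counts, CPM, Wilson intervals and exact conditional intervals of log2 ratios were computed (Python 3.11.15, pandas 2.3.3, scipy 1.17.1). TMM factors and the common dispersion with an intercept-only design came from edgeR 4.0.16, and size factors from DESeq2 1.42.0 (R 4.3.3). Intervals of arm ratios used the normal approximation to log counts. The computations were tested on simulated data. Hairpins were paired by name. The members were taken by name alone, but both they and the lists were chosen with earlier results of these data known. The text names each family entry, the 3 miRs nearest to miR-34c-5p and the most abundant member of each list. Entries outside the family with a 5p seed of the family were to be named too, but none was found in the reference. It held a sequence of the same name for 1604 of the 1886 counted miRs, and the others were not searched. The alternatives were other denominators and scalings, read minimums, equal depth by thinning, and single libraries.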

Additional observations from a re-analysis of the deposited data

How the results depend on the processing

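The family held 0.278% of the miR reads. It held 1.31% with miR-10a-5p and miR-10b-5p out of the denominator, and 0.0633% without miR-34c-5p. The log2 ratio of the family, -1.24, was -0.89 with TMM scaling, -0.91 with TMM after a filter on low counts, -0.90 with DESeq2 size factors, -0.99 per all reads in the tables, -1.08 without miR-10a-5p and miR-10b-5p in the denominator, and -1.46 without miR-34c-5p. For miR-34c-5p, at -1.18, these scalings gave -0.83, -0.85, -0.84, -0.93 and -1.02. The 5p share of the family reads, 87.7%, was 44.5% without miR-34c-5p. These shifts follow from the denominators, scalings and entries themselves. In all of these settings the family remained lower in replicate 2.

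The number of detected entries was 6 at every read minimum tried up to 20 reads in each library, in either library and after thinning. Each library alone gave a family share between 0.165% and 0.391%, and with 2 libraries either one always lies within 1 SD of the mean. The mean CPM of the entries moved by less than the SD under TMM and DESeq2 scaling, which shift the libraries in opposite directions. No paired analysis was possible because both libraries belong to the same condition. Depth limits the 5 entries without reads and the interval of miR-34a-5p.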
